A study of Mus musculus with 12 samples.

Results

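Livers that combined loss of Tiparp with dioxin exposure (KO TCDD, 3 arrays) were set against livers of wild-type mice given the vehicle (WT corn oil, 3 arrays), 6 of the 12 arrays of the series. The arrays were chosen by their labelled genotype and treatment, and the combined effect of each probe set was compared with the sum of the effects of dioxin alone and of Tiparp loss alone. KO TCDD mice were Tiparp -/- and were injected intraperitoneally with 30 µg per kg of the dioxin TCDD. WT TCDD mice were Tiparp +/+ and received the same agent. KO corn oil mice were Tiparp -/- with corn oil, and WT corn oil mice were Tiparp +/+ with corn oil, so the wild-type mice here had the vehicle and were not left untouched. All mice were 8 weeks old and of a mixed C57BL/6;129Sv background. The sex, the time from dose to collection and the part of Tiparp that was removed are not given by the labels. Total liver RNA was measured on Affymetrix Mouse Exon 1.0 ST arrays, 1 array per liver with 3 biological replicates a group, and every value below is a deposited log2 expression value or a difference of such values.

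TCDD (2,3,7,8-tetrachlorodibenzo-p-dioxin) is a persistent ligand of the aryl hydrocarbon receptor (AhR), a transcription factor that enters the nucleus, pairs with ARNT and binds DNA elements with the core GCGTG, inducing enzymes of foreign-compound metabolism such as CYP1A1. TIPARP, also known as PARP7, is a mono-ADP-ribosyltransferase whose own gene is an AhR target and which represses AhR as part of a negative feedback loop, beside the AhR repressor AHRR. In mouse liver, TCDD is known for fat accumulation, wasting and the induction of cytochrome P450 genes.

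Array medians lay between 6.98 and 7.00 on the KO corn oil arrays and between 6.91 and 6.96 on the arrays of the other groups. Within-group correlations across probe sets were 0.979 to 0.989 (Pearson's r), the lowest being in KO corn oil, at 0.979 to 0.985. The 11 hepatocyte markers measured were alike in both groups, with a mean level of 13.01 to 13.03 on the KO TCDD arrays against 12.98 to 13.01 on the WT corn oil arrays, and albumin stood at 13.90 to 13.97 and 13.91 to 13.96. Of these 11, 0 were called and 1 had an unadjusted p below 0.05 (limma with Benjamini-Hochberg adjustment over all probe sets, adjusted p below 0.05, the rule for every call below). Over all genes the shares were 2.83% and 18.1%. In whole liver, fewer cells of a type and less RNA per cell cannot be told apart.

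Tiparp itself, the deleted gene, had 6.82, 6.70 and 6.91 in KO TCDD livers, against 7.42, 7.41 and 7.33 in WT corn oil livers. It had 9.91, 10.82 and 10.84 in WT TCDD livers and 7.10, 6.20 and 5.58 in KO corn oil livers. All KO TCDD arrays were thus below all WT corn oil arrays, and the 3 WT TCDD arrays stood above the other 9. The combined effect was -0.58 ± 0.34 (log2, SE) and was not called (limma adjusted p = 0.449), whereas TCDD raised the signal by 3.14 ± 0.34 in the wild type (adjusted p = 0.00935). In the fit of the 6 arrays alone the combined effect was called. The deviation of the combined effect from the sum of the single effects was -2.62 ± 0.49 and was not called (adjusted p = 0.0742). Where the probe set lies relative to the deleted part of the gene was not known here, so the remaining knockout signal is no measure of residual transcript.

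Of 23332 probe sets, 533 (2.28%) were called between KO TCDD and WT corn oil, 313 higher (1.34%) and 220 lower (0.943%), while 3774 (16.2%) had an unadjusted p below 0.05. By gene these were 420 of 14860 (2.83%), with 242 higher (1.63%) and 178 lower (1.2%), and 18.1% of genes had an unadjusted p below 0.05. The rises were larger than the falls. The called rises had a median of 0.97, and 146 of the 313 were at least 2-fold, whereas the called falls had a median of -0.60, and 24 of the 220 were at least 2-fold. The median over all probe sets was -0.01. TCDD alone was called for 27 probe sets in the wild type (0.116%), all higher, and loss of Tiparp alone for 457 under corn oil (1.96%), 288 higher (1.23%) and 169 lower (0.724%). These comparisons share the WT corn oil arrays with the combined effect. After another round of quantile normalization the combined effect had 353 probe sets higher and 157 lower (69.2% higher, against 58.7% as deposited). The split turned in other fits, with 355 higher and 456 lower after the lowest 50% of probe sets were dropped, 576 and 684 with array weights, and 340 and 380 with 1-symbol probe sets only.

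The KO TCDD arrays stood above all 9 other arrays for 209 of the 313 called rises, a pattern found in 463 of all probe sets (1.98%). They stood below all 9 others for 111 of the 220 called falls, a pattern found in 640 of all probe sets (2.74%). The calls themselves used 6 of these arrays. The other 6 arrays, WT TCDD and KO corn oil, took no part in the combined effect beyond the shared residual spread. In the difference WT TCDD minus KO corn oil, 226 of the 313 rises were above 0 (72.2%, against 44.5% of all probe sets), 55 were called higher and 1 was called lower. Of the 220 falls, 111 were above 0 (50.5%), 2 were called higher and 9 were called lower. Over all probe sets 112 were called in each direction (0.48% each). The called rises therefore lay mostly higher in dioxin-treated wild-type livers than in vehicle-treated knockout livers, and the called falls were evenly split.

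Cyp1a1, which encodes the AhR-induced monooxygenase used as the standard readout of dioxin exposure, had the largest rise. It read 13.27, 13.32 and 13.34 in KO TCDD livers, 13.19, 13.32 and 13.21 in WT TCDD livers, 8.84, 8.07 and 8.12 in KO corn oil livers, and 5.47, 6.85 and 6.64 in WT corn oil livers. The dioxin-treated arrays of both genotypes lay together near the top of the table, whose highest value is 14.16, and the KO corn oil arrays lay above the WT corn oil arrays without overlap. The combined effect was 6.99 ± 0.32, or 127-fold (limma adjusted p = 7.2e-06), the effect of TCDD alone was 6.92 ± 0.32 and that of Tiparp loss alone 2.02 ± 0.32 (adjusted p = 1.59e-05 and 0.0278). The single effects summed to 8.94 ± 0.55, and the combined effect fell short of that by a deviation of -1.95 ± 0.45, which was not called (adjusted p = 0.0973). Cyp1a2, the constitutive hepatic member of the same family, read 13.67, 13.77 and 13.79 in KO TCDD livers, against 12.84, 12.64 and 12.45 in WT corn oil livers, with WT TCDD livers again at 13.60 to 13.75. Its combined effect was 1.10 ± 0.14 (adjusted p = 0.00312) beside a sum of 1.30 ± 0.24.

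The AhR targets Cyp1b1, Ahrr and Nqo1 were higher on every KO TCDD array than on any array of the other groups. Cyp1b1, a P450 that oxidises steroids and polycyclic hydrocarbons, had 8.73, 10.95 and 10.97 in KO TCDD livers, against 6.05, 6.27 and 6.55 in WT corn oil livers. WT TCDD livers had 7.20 to 7.55 and KO corn oil livers 6.22 to 6.63, so no array of another group reached the lowest KO TCDD array, replicate 1. The AhR repressor Ahrr showed the same order, with 7.63, 8.97 and 9.01 in KO TCDD livers, against 5.90, 5.88 and 5.95 in WT corn oil livers, and replicate 1 was again the lowest of its group. Combined effects were 3.93 ± 0.49 for Cyp1b1 and 2.63 ± 0.30 for Ahrr (limma adjusted p = 0.00265 and 0.00147). The sums of the single effects were 1.20 ± 0.84 and 0.62 ± 0.51, and the deviations of 2.72 ± 0.69 and 2.01 ± 0.42 were not called (adjusted p = 0.116 and 0.0841). Nqo1, a quinone reductase that responds to both AhR and NRF2, had 9.18, 9.70 and 9.58 in KO TCDD livers, against 6.70, 6.31 and 6.03 in WT corn oil livers, and 7.59 to 8.36 in WT TCDD livers. Its combined effect was 3.14 ± 0.25, or 8.82-fold (adjusted p = 0.000198), and the deviation from the sum was 1.42 ± 0.35 (adjusted p = 0.107).

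Of the 13 AhR target genes measured, 9 were called higher and 0 lower (69.2%, against 2.83% of all genes), with a median combined effect of 1.35 against 0.00 over all genes. TCDD alone was called for 7 of the 13 (0.168% of all genes) and Tiparp loss alone for 2 (2.32% of all genes). Pmm1, a phosphomannomutase of mannose metabolism, had 8.66 on each KO TCDD array, against 6.84, 6.76 and 6.85 in WT corn oil livers and 7.39 to 7.65 in WT TCDD livers. It rose by 1.84 ± 0.08 (adjusted p = 7.2e-06), and its deviation of 1.04 ± 0.11 above the sum was called (adjusted p = 0.0242). Ugdh, which makes UDP-glucuronate for conjugation, rose by 1.01 ± 0.08 and the purine-degrading oxidase Xdh by 1.06 ± 0.19 (adjusted p = 0.000249 and 0.0209), and the Xdh call was lost in 4 of 12 fits that left out 1 array. Pmm1, Ugdh and Xdh were named after their values were seen. The lysosomal transporter Slc46a3 differed by 1.35 ± 0.40 (adjusted p = 0.123), and Cyp2s1 and Aldh3a1 by 0.13 and 0.10. Among 10 genes of the AhR complex and its chaperones and cofactors, 1 was called higher (against 1.63% of all genes). This was the corepressor Nrip1 at 0.57 ± 0.12 (limma adjusted p = 0.0461), a call lost in 10 of 12 fits that left out 1 array. Ahr had 8.95, 9.70 and 8.32 in KO TCDD livers, against 10.64, 10.30 and 10.38 in WT corn oil livers, without overlap. That difference of -1.45 ± 0.38 was not called (adjusted p = 0.0839), and Arnt differed by -0.09 ± 0.10.

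**Figure D1:**
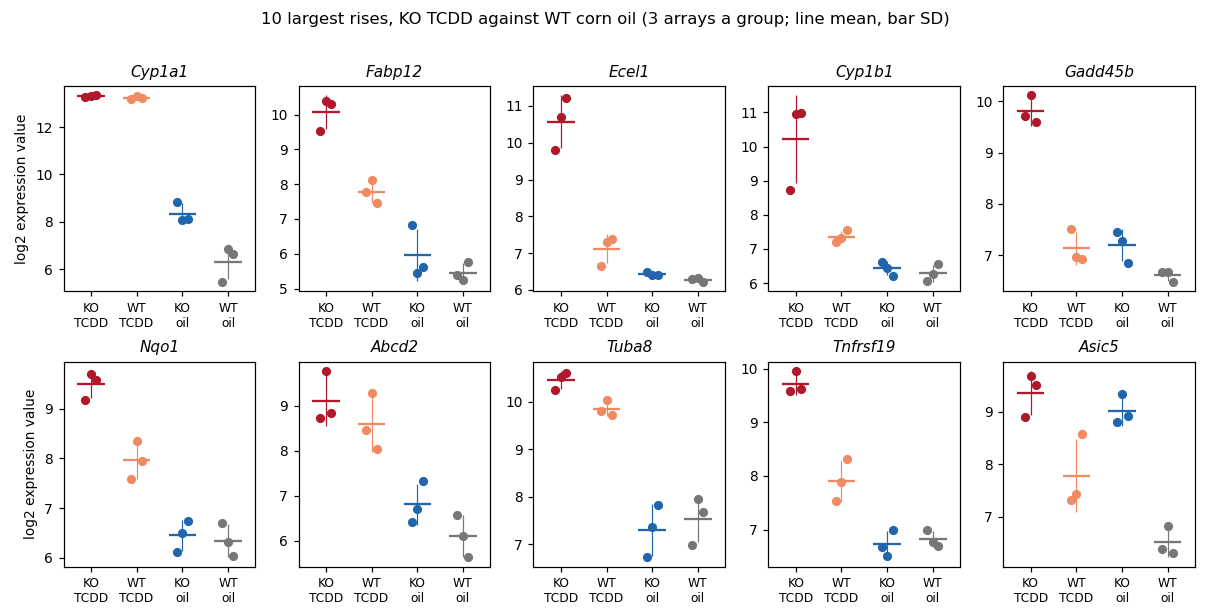
Deposited log2 expression values of the 10 genes with the largest called rises, by group (KO TCDD, WT TCDD, KO corn oil, WT corn oil); points are arrays, horizontal lines group means and vertical bars SD (n = 3). KO TCDD arrays lie above all WT corn oil arrays in each panel, and both dioxin groups lie together for Cyp1a1, between 13.19 and 13.34.

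The remaining large rises were of varied function. Fabp12, a fatty acid-binding protein gene, had 9.52, 10.40 and 10.30 in KO TCDD livers, 7.78, 8.12 and 7.46 in WT TCDD livers, 6.83, 5.46 and 5.61 in KO corn oil livers, and 5.39, 5.24 and 5.75 in WT corn oil livers. KO TCDD arrays were the highest, followed by WT TCDD arrays without overlap. Its combined effect was 4.61 ± 0.36, or 24.5-fold (limma adjusted p = 0.000198), beside a sum of 2.83 ± 0.63 and a deviation of 1.78 ± 0.51 that was not called (adjusted p = 0.155). Abcd2, a peroxisomal transporter of very long-chain fatty acids, and Tuba8, an alpha-tubulin, rose by 3.01 ± 0.39 and 2.92 ± 0.29 (adjusted p = 0.00344 and 0.000666). Abcd2 read 8.73, 9.77 and 8.84 in KO TCDD livers, against 6.58, 6.10 and 5.64 in WT corn oil livers, but overlapped with the WT TCDD range of 8.04 to 9.28. Its sum of 3.20 ± 0.68 was close to the combined effect. Asic5, a member of the acid-sensing ion channel family, differed from these. It had 8.89, 9.68 and 9.51 in KO TCDD livers, 7.32, 7.43 and 8.58 in WT TCDD livers, 8.80, 9.34 and 8.91 in KO corn oil livers, and 6.39, 6.83 and 6.30 in WT corn oil livers. The knockout arrays were high with either treatment, and Tiparp loss alone gave a difference of 2.51 ± 0.33 beside the combined 2.85 ± 0.33 (adjusted p = 0.0204 and 0.00189). Asic5 lies on chromosome 3, as Tiparp does, and the strain origin of its region was not tested.

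Gadd45b, Ecel1, Tnfrsf19 and Tnfaip2 rose by more with both changes together than the single effects add up to, with a called deviation for each. Gadd45b, a stress-induced gene of DNA demethylation and p38 signalling, had 9.71, 10.12 and 9.59 in KO TCDD livers, 7.51, 6.96 and 6.93 in WT TCDD livers, 7.45, 7.28 and 6.84 in KO corn oil livers, and 6.67, 6.67 and 6.48 in WT corn oil livers. All KO TCDD arrays lay far above the arrays of the other groups. The combined effect of 3.20 ± 0.20 (9.19-fold, limma adjusted p = 8.46e-05) exceeded the sum of 1.11 ± 0.35 by 2.09 ± 0.29 (adjusted p = 0.0293). Ecel1, which encodes an endothelin-converting enzyme-like metallopeptidase best known from neurons, had 9.80, 10.70 and 11.22 in KO TCDD livers, against 6.29, 6.31 and 6.22 in WT corn oil livers. WT TCDD livers had 6.66, 7.29 and 7.39 and KO corn oil livers 6.40 to 6.49, so the groups did not overlap with KO TCDD. Its combined effect was 4.30 ± 0.30, its sum 1.00 ± 0.52 and its deviation 3.30 ± 0.43 (adjusted p = 0.00014, 0.466 and 0.0292).

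Tnfrsf19, a receptor of the tumour necrosis factor family also known as TROY, had 9.58, 9.96 and 9.62 in KO TCDD livers, 7.53, 7.89 and 8.31 in WT TCDD livers, 6.68, 6.51 and 7.00 in KO corn oil livers, and 7.00, 6.77 and 6.70 in WT corn oil livers. WT TCDD arrays were intermediate. The combined effect was 2.90 ± 0.20 and the deviation 1.90 ± 0.28 (limma adjusted p = 0.000132 and 0.0379). Tnfaip2, a gene induced by tumour necrosis factor, had 11.69, 11.87 and 12.10 in KO TCDD livers, against 9.48, 9.21 and 9.53 in WT corn oil livers. WT TCDD livers had 9.79 to 10.20 and KO corn oil livers 8.47 to 9.22. The combined effect of 2.48 ± 0.20 compared with a sum of 0.10 ± 0.34, a deviation of 2.38 ± 0.28 (adjusted p = 0.000206, 0.94 and 0.0242). The combined effects of the 10 largest rises stayed called in all 12 fits that left out 1 array. The deviation calls held in 5 of these fits for Gadd45b, Ecel1 and Tnfaip2 and in 3 for Tnfrsf19.

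Promoter windows of the rises were read for the AhR core because Cyp1a1, Cyp1b1 and Nqo1, among the largest, are known AhR targets. The windows, 250 bases before to 50 after an annotated start, are RefSeq's on GRCm38.p6, a later build than the mm9 named in the submitters' processing notes, and 11894 of the 14860 genes had at least 1, of which the first listed was used. The core GCGTG was searched on both strands, where it reads CACGC on the other. It occurred in 52.4% of the windows of called rises (100 of 191), in 47.3% of those of called falls (70 of 148) and in 43.5% of all (5179 of 11894). Median GC content was 62.0% for rises and 62.3% for falls, against 58.3% for all windows. Of the 10 largest rises 8 had a window and 4 held a core, and of the 10 largest falls 6 had a window and 0 held it. The median GC content of these windows was 56.2% for the rises and 49.0% for the falls. The 4 windows with a core follow in gene orientation, 5′ to 3′, with the core in capitals: Cyp1a1 at chr9:57697363-57697662 on the plus strand, Gadd45b at chr10:80929841-80930140 on the plus strand, Cyp1b1 at chr17:79715012-79715311 on the minus strand, and Tnfrsf19 at chr14:61046806-61047105 on the minus strand.
Cyp1a1: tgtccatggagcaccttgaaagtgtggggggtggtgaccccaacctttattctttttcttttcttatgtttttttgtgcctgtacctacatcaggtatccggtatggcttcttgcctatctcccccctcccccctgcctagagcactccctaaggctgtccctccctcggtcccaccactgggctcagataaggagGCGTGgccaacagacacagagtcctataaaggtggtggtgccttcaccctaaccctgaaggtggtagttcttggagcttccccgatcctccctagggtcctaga
Gadd45b: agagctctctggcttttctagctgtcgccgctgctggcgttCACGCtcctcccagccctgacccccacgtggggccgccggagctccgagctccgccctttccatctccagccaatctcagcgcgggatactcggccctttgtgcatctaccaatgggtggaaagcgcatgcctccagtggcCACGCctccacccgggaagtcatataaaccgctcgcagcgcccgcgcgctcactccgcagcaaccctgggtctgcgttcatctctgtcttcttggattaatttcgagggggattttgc
Cyp1b1: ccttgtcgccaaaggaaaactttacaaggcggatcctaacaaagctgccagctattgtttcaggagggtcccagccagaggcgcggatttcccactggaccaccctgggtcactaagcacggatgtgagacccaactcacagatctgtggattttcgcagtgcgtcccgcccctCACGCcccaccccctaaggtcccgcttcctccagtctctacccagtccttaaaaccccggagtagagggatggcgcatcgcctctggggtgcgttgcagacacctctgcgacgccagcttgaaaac
Tnfrsf19: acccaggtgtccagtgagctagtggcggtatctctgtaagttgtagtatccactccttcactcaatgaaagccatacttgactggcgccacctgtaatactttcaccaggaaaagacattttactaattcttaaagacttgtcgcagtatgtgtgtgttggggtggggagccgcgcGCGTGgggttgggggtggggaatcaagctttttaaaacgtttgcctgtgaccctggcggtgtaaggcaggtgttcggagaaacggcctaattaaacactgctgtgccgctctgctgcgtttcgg
The core's first base lay 54 bases before the start in Cyp1a1, 76 in Cyp1b1 and 74 in Tnfrsf19, and Gadd45b held it at 209 and 68 bases before its start. The cores of Cyp1a1 and Tnfrsf19 read GCGTG on the gene's strand, and those of Gadd45b and Cyp1b1 on the opposite strand. The windows of Ecel1, Nqo1, Tuba8 and Asic5 did not contain these letters. Only the 5-base core was matched, without its flanks, and sequence outside the 300-base windows was not read. A marked core is thus a match of letters, and AhR binding was not tested.

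The NRF2 pathway, which induces antioxidant and glutathione enzymes, moved in part. Of 16 genes measured, 4 were called higher and 0 lower (against 2.83% of all genes). A combined effect above 0 was found for 15 of 16 (against 48.9% of all genes), with a median of 0.22. TCDD alone in the wild type likewise gave 15 of 16 above 0, with a median of 0.27, and the median deviation was 0.02. Nfe2l2, which encodes NRF2, read 12.60, 12.71 and 12.69 in KO TCDD livers, against 11.07, 10.86 and 11.06 in WT corn oil livers, with 11.97 to 12.07 in WT TCDD livers. Srxn1, which repairs peroxiredoxins, read 10.98, 11.28 and 11.33 in KO TCDD livers, against 9.23, 9.19 and 9.38 in WT corn oil livers. For both genes the groups were ordered KO TCDD, then WT TCDD, then the corn oil groups, without overlap between KO TCDD and any other array. Their combined effects were 1.67 ± 0.11 and 1.93 ± 0.12 (limma adjusted p = 0.000132 and 6.58e-05), and their deviations of 0.92 ± 0.16 and 0.94 ± 0.17 were not called (adjusted p = 0.0688 and 0.0701). Pgd, an NADPH-forming enzyme of the pentose phosphate pathway, rose by 0.68 ± 0.08 although the single effects summed to -0.20 ± 0.15, and its deviation of 0.88 ± 0.12 was called (adjusted p = 0.0292). Nqo1 and Nfe2l2 are also on the AhR list. Gclc, the catalytic subunit of glutathione synthesis, differed by 0.94 ± 0.28 (adjusted p = 0.123).

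Among 16 genes of the p53 response and the CDK inhibitors, 4 were called higher and 1 lower, against 1.63% and 1.2% of all genes. Besides Gadd45b these were Gadd45g, its paralogue, Tnfrsf10b, a death receptor for TRAIL, and Cdkn1b, the CDK inhibitor p27. Tnfrsf10b had 7.99, 8.61 and 8.58 in KO TCDD livers, against 6.15, 6.22 and 7.08 in WT corn oil livers, and 6.02 to 6.75 in the other groups. Its combined effect was 1.91 ± 0.27 beside a sum of -0.06 ± 0.47 (limma adjusted p = 0.0053 and 0.975). Cdkn1b had 9.40, 9.67 and 9.79 in KO TCDD livers, against 8.53, 8.33 and 8.58 in WT corn oil livers, without overlap, and rose by 1.14 ± 0.12 (adjusted p = 0.000782). Gadd45g rose by 2.48 ± 0.44 (adjusted p = 0.0193), a call lost without WT corn oil replicate 1 or 2 or KO TCDD replicate 2 or 3. Trp53inp1, a p53-induced autophagy and death gene named here after its value was seen, fell by 0.95 ± 0.13 on the log2 scale (adjusted p = 0.00462). Cdkn1a, the p21 gene, had 11.01, 10.78 and 11.30 in KO TCDD livers, against 7.11, 8.69 and 10.41 in WT corn oil livers, and the wide spread left 2.29 ± 1.22 uncalled (adjusted p = 0.393). The list's median was -0.03, so the calls were of a few members. By limma 0 of 23 cell cycle genes were called, and 7 had an unadjusted p below 0.05, as had 18.1% of all genes.

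Genes of lipid uptake and the lipid droplet moved singly. Of 20 measured, 3 were called higher and 1 lower (against 1.63% and 1.2% of all genes), with a median of -0.05, and leaving out single arrays gave 2 to 4 calls. Besides Fabp12, the monoglyceride lipase Mgll rose, with 11.55, 11.56 and 11.47 in KO TCDD livers, against 10.40, 10.38 and 10.16 in WT corn oil livers. The WT TCDD range of 11.21 to 11.26 lay between them. The combined effect of Mgll was 1.21 ± 0.16 and its sum 0.92 ± 0.28 (limma adjusted p = 0.00418 and 0.23). Fabp4, the adipocyte fatty acid-binding protein, rose by 0.77 ± 0.13 and the droplet coat protein gene Plin3 fell by 0.59 ± 0.13 on the log2 scale (adjusted p = 0.0174 and 0.045). The Fabp4 call was lost in 3 of 12 fits that left out 1 array and the Plin3 call in 9. Lpin2, a phosphatidate phosphatase of triglyceride synthesis, was the single call among 16 genes of triglyceride assembly (against 1.63% of all genes called higher). It rose by 1.70 ± 0.34 (limma adjusted p = 0.0297), a call lost in 6 of these fits. In fatty acid synthesis (16 genes), fatty acid oxidation (16), cholesterol synthesis (15), bile acid (19), glucose (17) and retinoid (13) metabolism, 0 genes were called by limma in the combined effect. An unadjusted p below 0.05 was found for 3, 1, 0, 6, 3 and 3 of them, in that order of lists. Of all genes, 2.83% were called and 18.1% had an unadjusted p below 0.05. Cyp7a1, the rate-limiting enzyme of bile acid synthesis, had 8.50, 8.39 and 6.84 in KO TCDD livers, against 11.45, 12.49 and 10.87 in WT corn oil livers, without overlap. Its difference of -3.69 ± 1.29 was not called (adjusted p = 0.188), and single arrays of the other groups ranged from 7.38 to 12.72. Igfbp1, a stress- and insulin-regulated secreted protein, had 12.54, 12.46 and 12.53 in KO TCDD livers, against 10.31, 10.86 and 9.90 in WT corn oil livers, and its 2.15 ± 0.60 was likewise not called (adjusted p = 0.101).

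Of the other lists, growth hormone signalling had 2 of 16 genes called (against 2.83% of all genes), both feedback inhibitors of JAK-STAT signalling. Cish had 8.38, 9.72 and 8.95 in KO TCDD livers, 9.05, 9.26 and 9.78 in WT TCDD livers, 9.01, 9.88 and 9.77 in KO corn oil livers, and 7.12, 7.49 and 7.06 in WT corn oil livers. The 3 other groups overlapped, and all lay above WT corn oil. The combined effect of 1.79 ± 0.34 was below the sum of 4.47 ± 0.59, with a deviation of -2.68 ± 0.48 that was not called (limma adjusted p = 0.0251, 0.0458 and 0.073). Socs3 rose by 1.01 ± 0.21 at the probe set used and by 1.37 ± 0.23 at the second (adjusted p = 0.0355 and 0.0129). Other single calls were Sgk1, a glucocorticoid-induced kinase, at 1.18 ± 0.21, and Ppp1r15a, the stress-induced phosphatase subunit GADD34, at 0.59 ± 0.13 (adjusted p = 0.0173 and 0.0443). Cyp3a13, the NAD-synthesising enzyme gene Nmnat1 and the haem synthesis gene Ppox fell by 0.60, 0.64 and 0.39 on the log2 scale (adjusted p = 0.0167, 0.0494 and 0.0469). Without single arrays the Cish call was lost in 5 of 12 fits and the Socs3 call in 7, that of Sgk1 in 1, those of Cyp3a13 and Ppp1r15a in 4 and 8, and those of Nmnat1 and Ppox in 10 and 11. By limma 0 of 16 interferon-stimulated, 14 clock and 8 male-biased genes were called, and 5, 2 and 3 had an unadjusted p below 0.05, as had 18.1% of all genes. The median combined effects of these lists were 0.44, -0.37 and -0.26. For the interferon-stimulated genes Tiparp loss alone had a median of 0.445 and TCDD alone one of -0.002. Among 9 female-biased genes, 1 was called (against 2.83% of all genes), Abcd2, and 3 had an unadjusted p below 0.05.

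**Figure D2:**
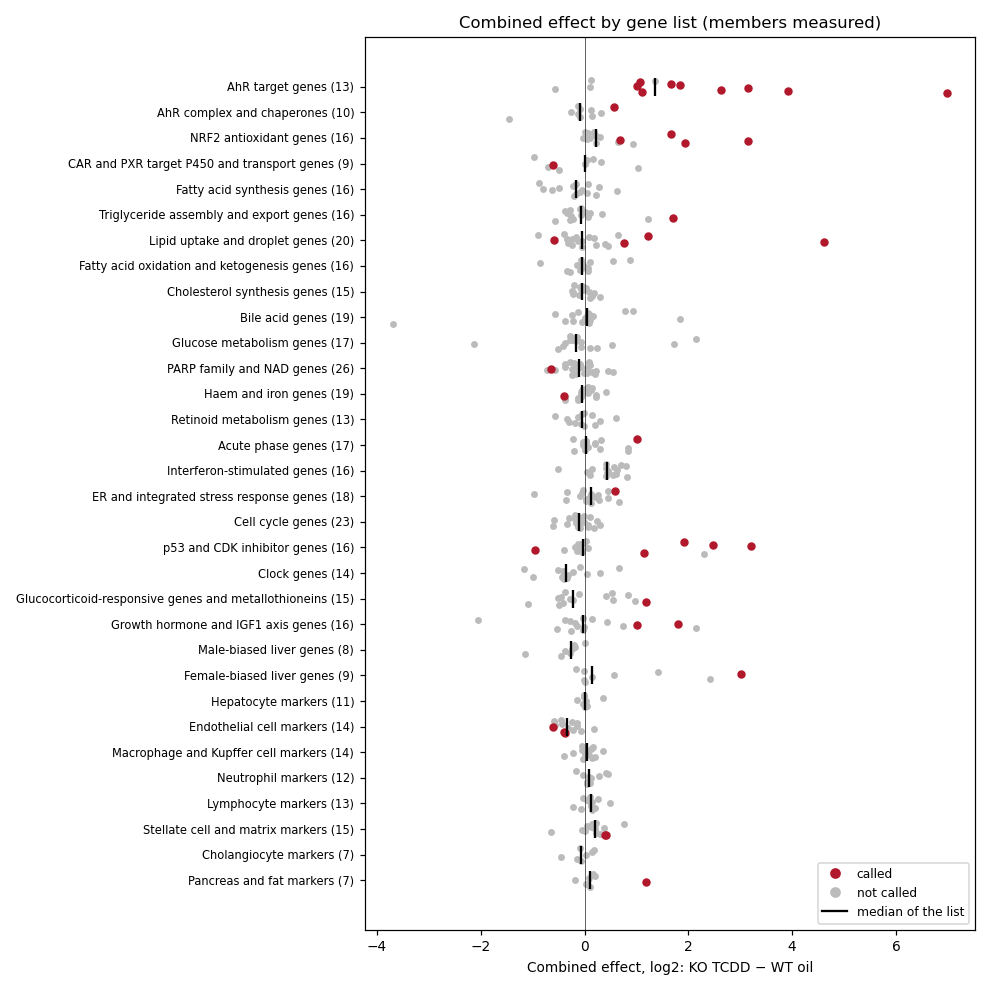
Combined effect (KO TCDD minus WT corn oil, log2) of each measured member of 32 gene lists; called members are red, others grey, and the black bar is the median of the list, with the number measured in brackets. The AhR targets have the highest median, 1.35, with 9 of 13 members called. The medians of the other lists lie between -0.37 (clock genes) and 0.44 (interferon-stimulated genes), and most of these lists have 0 to 2 calls.

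The cell type markers moved by small amounts. Of 14 endothelial markers, 3 were called lower and 0 higher (against 1.2% and 1.63% of all genes), and the 3 KO TCDD arrays lay below the 3 WT corn oil arrays for 9 of the 14, a pattern found in 15.9% of all genes. Tek, the angiopoietin receptor, had 7.75, 8.13 and 7.82 in KO TCDD livers, against 8.51, 8.57 and 8.42 in WT corn oil livers. The scavenger receptor genes Stab1 and Stab2 of sinusoidal endothelium differed by -0.37 ± 0.08 and -0.40 ± 0.09, and Tek by -0.60 ± 0.13 (limma adjusted p = 0.0328, 0.0462 and 0.04). The mean level over the 14 markers was 9.26 to 9.50 on KO TCDD arrays, 9.31 to 9.37 on WT TCDD arrays, 9.72 to 9.87 on KO corn oil arrays and 9.59 to 9.75 on WT corn oil arrays, so the dioxin-treated arrays of both genotypes were the lower ones. Leaving out single arrays gave 0 to 3 calls. Collagen genes Col1a1 and Col1a2 were called higher by 0.40 ± 0.09 and 0.41 ± 0.08 (adjusted p = 0.0461 and 0.0276), 2 of 15 stellate cell and matrix markers (against 1.63% of all genes). Their calls were lost in 9 and 5 of the 12 fits that left out 1 array. By limma 0 of the macrophage (14), neutrophil (12), lymphocyte (13), cholangiocyte (7) and erythroid (3) markers were called, and an unadjusted p below 0.05 was found for 0, 0, 1, 0 and 1. Over all genes the shares were 2.83% called and 18.1% with an unadjusted p below 0.05. Ctrb1, a pancreatic protease gene, had 7.31, 7.15 and 7.40 in KO TCDD livers, against 6.18, 6.04 and 6.09 in WT corn oil livers, and rose by 1.18 ± 0.09 (adjusted p = 0.000198). The pancreatic genes Cela1 and Cpa1 differed by 0.10 ± 0.11 and 0.03 ± 0.09 and were not called. The part of cell composition in the other results was not tested.

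The falls were led by Mme, which encodes the peptidase neprilysin. It had 5.10, 5.38 and 5.07 in KO TCDD livers, 8.70, 7.80 and 8.43 in WT TCDD livers, 5.14, 5.51 and 5.24 in KO corn oil livers, and 9.58, 8.68 and 7.65 in WT corn oil livers. Both knockout groups were low and both wild-type groups high, without overlap. The combined effect of -3.45 ± 0.40 and the effect of Tiparp loss alone of -3.34 ± 0.40 were called (limma adjusted p = 0.00189 and 0.0204), whereas TCDD alone gave -0.33 ± 0.40 (adjusted p = 0.933). Sucnr1, the succinate receptor, fell by 2.07 ± 0.46 on the log2 scale and Rtn4rl1, a Nogo receptor-like gene, by 1.69 ± 0.29 (adjusted p = 0.048 and 0.0166). Rtn4rl1 had 7.10, 7.36 and 7.26 in KO TCDD livers, 9.01, 8.32 and 8.16 in WT TCDD livers, 6.96, 7.49 and 7.99 in KO corn oil livers, and 9.22, 8.51 and 9.05 in WT corn oil livers. It too followed genotype, with a Tiparp loss effect of -1.45 ± 0.29 (adjusted p = 0.0437). Mme and Sucnr1 lie close to Tiparp on chromosome 3. Of the 25 measured genes on either side of Tiparp, in the order of the RefSeq table, 0 were called higher and 3 lower (6.0%, against 2.83% of all genes), the third being the lipid hydrolase gene Aadac at -0.69. Asic5, a rise that followed genotype, is also on chromosome 3 but is not among these genes. The mice had a mixed C57BL/6;129Sv background, and the strain origin of the regions that hold these genes was not tested.

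In the other falls the KO TCDD arrays were the lowest of the 4 groups or close to it. Ablim3, an actin-binding LIM protein gene, had 7.25, 7.32 and 7.06 in KO TCDD livers, 8.38, 7.71 and 7.87 in WT TCDD livers, 8.05, 8.56 and 8.54 in KO corn oil livers, and 8.65, 8.95 and 8.68 in WT corn oil livers. KO TCDD arrays were lowest and WT corn oil arrays highest, with the single-effect groups between them. The combined effect was -1.55 ± 0.19, and its sum -1.15 ± 0.33 (limma adjusted p = 0.00251 and 0.208). Zfand4 and Exph5 fell by 1.77 ± 0.28 and 1.24 ± 0.22 on the log2 scale, beside sums of -2.09 ± 0.48 and -1.45 ± 0.38. Etfbkmt, a mitochondrial lysine methyltransferase gene, Tedc2, a tubulin complex gene, and Palmd, a paralemmin relative, had KO TCDD arrays below those of the 3 other groups. Tedc2 had 8.21, 8.20 and 7.78 in KO TCDD livers, against 8.94, 9.45 and 9.88 in WT corn oil livers, and 8.85 to 9.53 in the other groups. The 3 genes had combined effects of -1.45 ± 0.26, -1.36 ± 0.22 and -1.13 ± 0.23 (adjusted p = 0.0196, 0.0119 and 0.0356) and deviations of -0.73, -0.95 and -0.98, none of them called. The olfactory receptor gene Olfr138 was called at -1.26 ± 0.26 (adjusted p = 0.0355), but its KO TCDD values of 2.92, 2.40 and 1.91 are near the bottom of the scale, where the lowest value is 1.05. Of the 10 largest falls, Mme and Ablim3 stayed called in all 12 fits that left out 1 array, Zfand4 in 11, Etfbkmt and Tedc2 in 10, Rtn4rl1 and Exph5 in 8, Olfr138 and Palmd in 4 and Sucnr1 in 2. In the fit of the 6 compared arrays alone, Etfbkmt, Tedc2, Olfr138, Palmd and Sucnr1 were not called.

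**Figure D3:**
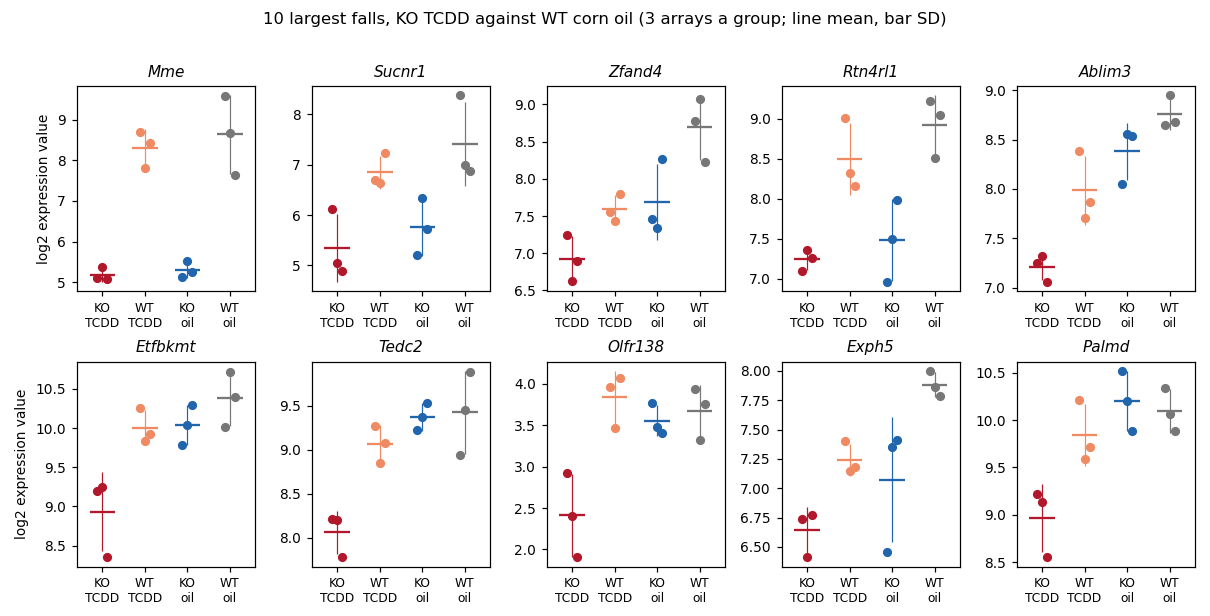
Deposited log2 expression values of the 10 genes with the largest called falls, by group (KO TCDD, WT TCDD, KO corn oil, WT corn oil); points are arrays, horizontal lines group means and vertical bars SD (n = 3). Mme and Rtn4rl1 are low in both knockout groups, and Tedc2, Etfbkmt and Palmd are lowest in KO TCDD.

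If dioxin and Tiparp loss acted additively on the log2 scale, the combined effect would equal the sum of the single effects. The deviation from that sum is the genotype by treatment interaction and was tested as such with limma over all 12 arrays. It was called for 37 of 23332 probe sets (0.159%), 25 above the sum (0.107%) and 12 below it (0.0514%), while 3446 (14.8%) had an unadjusted p below 0.05. Over all probe sets its median was -0.05. The 313 called rises had a median sum of 0.58 and a median combined effect of 0.97, with TCDD alone at 0.43 and Tiparp loss alone at 0.13. The 220 called falls had a median sum of -0.48 and a combined median of -0.60, with both single effects at -0.25. The rises and falls were selected on the combined effect, so their medians are a description.

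**Figure D4:**
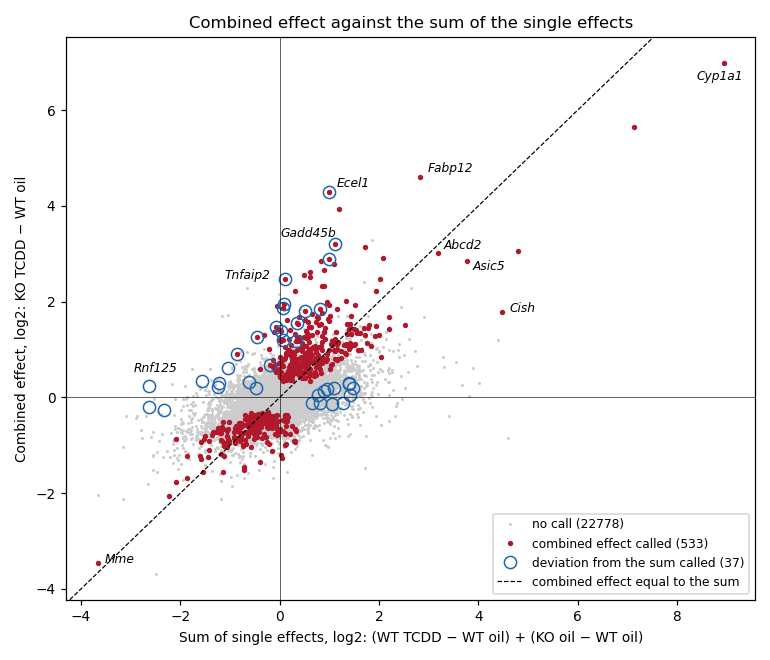
Combined effect (KO TCDD minus WT corn oil, vertical axis) against the sum of the single effects (horizontal axis) for 23332 probe sets, both in log2; red points are the 533 probe sets called in the combined effect, blue circles the 37 called in the deviation, and the dashed line marks equality. Ecel1, Gadd45b and Tnfaip2 lie far above the line, and a group of circled probe sets lies near a combined effect of 0 with sums on either side.

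Of the 25 probe sets above the sum, 16 were also called higher in the combined effect, and these include Ecel1, Gadd45b, Tnfrsf19, Tnfaip2, Pmm1 and Pgd. For the other 9 the combined effect was not called, and 7 of them were called lower in KO corn oil than in WT corn oil livers. The sum of the single effects was above 0 for 0 of the 9. The KO corn oil level enters the deviation with a minus sign, so the count of 7 follows in part from how the 9 were chosen and is a description. Rnf125, an E3 ubiquitin ligase gene, had 13.44, 12.85 and 13.54 in KO TCDD livers, 12.60, 12.59 and 11.84 in WT TCDD livers, 11.28, 10.64 and 11.37 in KO corn oil livers, and 13.19, 13.09 and 12.84 in WT corn oil livers. KO corn oil arrays were the lowest, WT TCDD arrays lay between, and KO TCDD arrays overlapped WT corn oil arrays. The combined effect was 0.24 ± 0.27, the sum -2.64 ± 0.46 and the deviation 2.88 ± 0.38 (limma adjusted p = 0.707, 0.0875 and 0.0292). The predicted gene Gm7180 stood at a lower level, with a combined effect of -0.27 ± 0.20 and a deviation of 2.06 ± 0.28 (adjusted p = 0.549 and 0.0292). Acacb, the mitochondrial acetyl-CoA carboxylase that restrains fatty acid oxidation, was chosen after its values were seen. It had 10.64, 10.62 and 10.16 in KO TCDD livers, against 10.19, 10.37 and 10.21 in WT corn oil livers, and 9.15 to 9.63 in KO corn oil livers. Its combined effect was 0.22 ± 0.15 and its deviation 1.47 ± 0.21 (adjusted p = 0.513 and 0.0315).

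All 12 probe sets below the sum were called higher in KO corn oil than in WT corn oil livers (1.23% of all probe sets), with a median of 0.68, and 0 were called in the combined effect, whose median was 0.10. The KO corn oil level enters the deviation with a minus sign, so these values follow in part from how the 12 were chosen and are a description. Klf10, a transforming growth factor beta-induced repressor, had 7.27, 7.37 and 7.32 in KO TCDD livers, 7.57, 7.59 and 7.55 in WT TCDD livers, 8.65, 8.05 and 8.41 in KO corn oil livers, and 7.09, 7.27 and 7.42 in WT corn oil livers. Ccne1, the G1/S cyclin E1, had 5.69, 6.12 and 5.99 in KO TCDD livers, against 6.06, 6.05 and 6.05 in WT corn oil livers, with KO corn oil livers at 6.86 to 7.52. In both genes the KO corn oil arrays alone were high. Their deviations were -1.36 ± 0.19 and -1.39 ± 0.22 (limma adjusted p = 0.0315 and 0.0484). Znrd1, a subunit of RNA polymerase I, Slc35a4, a nucleotide-sugar transporter family gene, Yrdc, a tRNA-modifying enzyme, and Dda1, a ubiquitin ligase component, deviated by -1.27, -1.11, -1.09 and -0.92, with combined effects of 0.20, 0.28, 0.31 and -0.12. All 12 were also called lower in KO TCDD than in KO corn oil livers, as were 3.37% of all probe sets, a comparison that shares the same arrays. The KO corn oil group had the widest within-group spread, a median SD of 0.16 against 0.13 to 0.14 elsewhere.

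**Figure D5:**
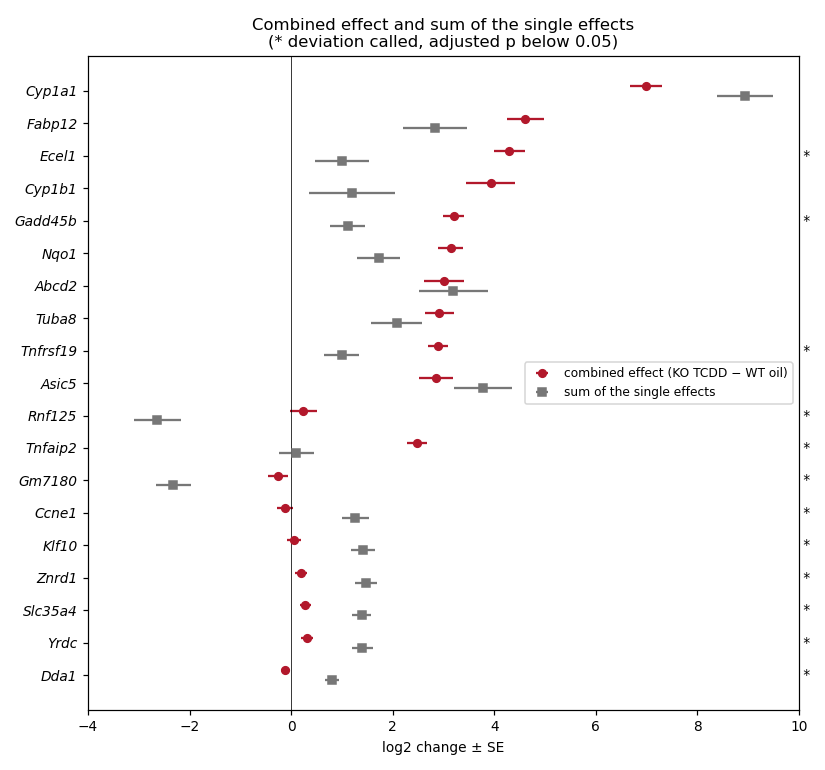
Combined effect (red circles) and sum of the single effects (grey squares), log2 ± SE, for the 10 largest rises and the genes with the 6 largest called deviations in each direction; asterisks mark called deviations. Ecel1 has 4.30 beside a sum of 1.00, Cyp1a1 has 6.99 beside 8.94, and Klf10 to Dda1 have combined effects near 0 beside sums of 0.80 to 1.47.

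Leaving out single arrays changed the number of deviation calls more, for its size, than that of combined-effect calls. The cause was not tested. Leaving out 1 array gave 204 to 711 calls for the combined effect and 0 to 546 for the deviation. Without WT corn oil replicate 2 or 3 the deviation had 0 calls and without replicate 1 it had 1, and without KO corn oil replicate 3 it had 546. Of the 10 largest rises, only Ecel1, Gadd45b and Tnfrsf19 had a called deviation, and an uncalled deviation does not show that the single effects add. The 18 genes with a called deviation that are named here kept the call in 2 to 6 of the 12 fits, with the same direction in all of them, and each lost it whichever WT corn oil array was left out.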

How the data were processed

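Liver RNA of 12 mice, 3 in each of 4 groups, was measured on Affymetrix Mouse Exon 1.0 ST arrays. The deposited values are log2 expression values, 1 per probe set and array, made by the authors with RMA in Affymetrix Expression Console, per the submitters' processing notes, which also name the build mm9. Software versions and the probe set level are unknown here. Values were used as deposited, without filter, pseudocount or further scaling.

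Of 23332 probe sets, 14996 had exactly 1 gene symbol in the platform's annotation, 1019 several and 7317 none. The 14996 cover 14860 genes, and where a gene had more than 1, the brightest by its mean of the 12 arrays stands for it, while 14941 of the probe sets were found in a RefSeq table of GRCm38.p6.

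All 12 arrays entered a model of the 4 group means in limma 3.58.1 (R 4.3.3), with 8 residual and 2.19 prior degrees of freedom. Contrasts gave the combined effect (KO TCDD minus WT corn oil), the single effects (WT TCDD minus WT corn oil, KO corn oil minus WT corn oil), their sum and the deviation of the combined effect from that sum. Benjamini-Hochberg adjustment ran over all probe sets of a contrast, and a call is an adjusted p below 0.05. Errors are SE of the log2 difference from limma. P-values measure the spread between arrays labelled as biological replicates, and 3 arrays a group limit the precision. The fit was tested on simulated data with known changes on the KO TCDD arrays. It recovered 23.9%, 65.7% and 93.9% of changes of 0.5, 1 and 2 log2 units for the combined effect. For the deviation it recovered 10.4%, 38.8% and 74.2%. Of the simulated calls, 7 of 129 and 6 of 88 were false.

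The groups, 33 gene lists (451 of 589 listed genes measured) and rules for naming genes were chosen with earlier results of these data known. By rule, Tiparp, the 10 largest rises and falls without overlap between groups, 5 AhR targets, the 6 largest deviations each way and up to 4 called members of each list were named, 56 genes in all. A further 19 were named after their values were seen (Pmm1, Xdh, Ugdh, Trp53inp1, Acacb and those first named in the closing section). Replicate numbers are shared between groups. Deviations of same-numbered arrays from their group means correlated with r of -0.21 to 0.11, over 0.1 in 2 of 18 pairs. For the 36 pairs of arrays with different numbers r was -0.11 to 0.16. Deviations from the mean of a small group are not independent, so these values cannot decide whether the numbers pair the arrays. The main model does not pair them.

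Among the alternatives were 2 other empirical Bayes settings (robust, trended), a fit of the 6 compared arrays, the replicate number as a block, a further quantile normalization, centring on medians, removal of the lowest 25% or 50% of probe sets, array weights, restriction to probe sets with 1 symbol, a minimum change of 1.5-fold, a threshold of 0.01 and the omission of each array in turn. A fit without the KO corn oil group was added after seeing the data.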

Additional observations from a re-analysis of the deposited data

Results flagged for a closer look

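For 18 named genes the effect of TCDD differed between the genotypes by the limma interaction test over 12 arrays, which is the same quantity as the deviation of the combined effect from the sum of the single effects. The difference (TCDD effect in the knockout minus TCDD effect in the wild type, log2 ± SE) was above 0 for 12 of them. Ecel1 had 3.30 ± 0.43, with TCDD effects of 4.14 in the knockout and 0.84 in the wild type. Rnf125 had 2.88 ± 0.38, with TCDD effects of 2.18 and -0.70 in the same order. Tnfaip2 differed by 2.38, Gadd45b by 2.09, Gm7180 by 2.06, Tnfrsf19 by 1.90, St8sia1 by 1.86 and Acacb by 1.47. Fgf23 differed by 1.20, Pmm1 by 1.04, Pgd by 0.88 and Ctrb1 by 0.86. Adjusted p-values of these 12 lay between 0.0242 and 0.0449.

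The difference was below 0 for 6 genes, each with a TCDD effect below 0 in the knockout and above 0 in the wild type. Ccne1 differed by -1.39, Klf10 by -1.36, Znrd1 by -1.27, Slc35a4 by -1.11, Yrdc by -1.09 and Dda1 by -0.92 (limma adjusted p from 0.0292 to 0.0484). Each of the 18 calls was lost whichever WT corn oil array was left out and with the replicate number as a block, and that of Ccne1 also under robust empirical Bayes. Groups of 3 arrays are too small for a test of single outlying arrays.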

How the results depend on the processing

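The combined effect was called for 533 probe sets. It had 269 calls from the 6 compared arrays alone, 811 after the lowest 50% of probe sets were dropped, 1260 with array weights, 174 at an adjusted p below 0.01 and 204 to 711 when 1 array was left out. The lowest counts were without WT corn oil replicate 2 (204), KO TCDD replicate 3 (217), and WT corn oil replicates 1 (282) and 3 (343). Named calls lost with the 6 compared arrays alone included Cyp1b1, Tnfrsf10b, Trp53inp1, Nrg1, St8sia3, Cish, Sgk1, Socs3, Fabp4, Tek, Stab1 and Stab2. With the lowest 50% dropped the falls (456) outnumbered the rises (355), as they did with array weights (684 against 576) and with 1-symbol probe sets only (380 against 340). The fit without the KO corn oil group, chosen after seeing the data, gave 668 calls, 335 higher and 333 lower. The deviation from additivity was called for 37 probe sets. It had 57 calls with trended empirical Bayes, 61 after quantile normalization again, 149 and 396 with the lowest 25% and 50% dropped, 162 with 1-symbol probe sets only, 693 with array weights and 0 at an adjusted p below 0.01. With the replicate block the combined effect had 394 calls and the deviation 0 (3246 at an unadjusted p below 0.05). Leaving out 1 array gave the deviation 0 to 546 calls. These were 1, 0 and 0 without WT corn oil replicates 1, 2 and 3 (3022, 2699 and 3428 at an unadjusted p below 0.05), 24, 1 and 4 without WT TCDD replicates 1, 2 and 3, 3 and 546 without KO corn oil replicates 2 and 3, and 59, 91 and 5 without KO TCDD replicates 1, 2 and 3. Directions were compared for the named genes only, and no called direction turned. Values near 0 did: the deviation of Cxcl12 was 0.05 after quantile normalization and that of Sucnr1 -0.33 with array weights. When 1 array was left out, the deviation ranged from -0.52 to 0.15 for Abcd2, -0.26 to 0.71 for Mme, -0.32 to 0.45 for Sucnr1, -0.07 to 0.45 for Rtn4rl1, -0.10 to 0.38 for Exph5 and -0.185 to 0.075 for Cxcl12. Likewise the combined effect ranged from -0.21 to 0.0017 for Ccne1 and -0.025 to 0.14 for Klf10. The cause of these changes was not tested. Over all alternatives, called members numbered 8 to 10 for AhR targets (9 as reported), 4 to 5 for NRF2 genes (4), 2 to 5 for lipid uptake and droplet genes (4), 3 to 5 for p53 and CDK inhibitor genes (5) and 0 to 4 for endothelial markers (3).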

Other observations

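The genes here were picked singly from the called probe sets after their values were seen, and they stand for no pathway or family. Bcl2l11, which encodes the BH3-only protein BIM, had 8.76, 9.25 and 9.75 in KO TCDD livers, 7.00, 7.37 and 7.28 in WT TCDD livers, 6.57, 7.12 and 6.91 in KO corn oil livers, and 6.58, 6.64 and 6.57 in WT corn oil livers. The KO TCDD arrays did not overlap with any other, and the combined effect was 2.66 ± 0.22 (SE, limma adjusted p = 0.000249). Bmf, another BH3-only gene, and Foxo3, a forkhead factor known to induce Bcl2l11, rose by 1.42 ± 0.23 and 1.57 ± 0.22 (adjusted p = 0.0116 and 0.0053). Nrg1, a ligand of ERBB receptors, rose by 2.22 ± 0.31, and Fgf23, a phosphate-regulating hormone gene mainly of bone, by 1.55 ± 0.13 (adjusted p = 0.0051 and 0.000249). Fgf23 had 8.16, 8.50 and 8.34 in KO TCDD livers, against 6.74, 6.68 and 6.92 in WT corn oil livers, and 6.79 to 7.18 in the other groups. The kinase gene Dclk3 rose by 2.79 ± 0.20, beside an effect of TCDD alone of 1.65 ± 0.20 (adjusted p = 0.000143 and 0.0131).

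St8sia1, a sialyltransferase gene of ganglioside synthesis, had 7.62, 7.62 and 8.35 in KO TCDD livers, against 5.90, 5.94 and 5.92 in WT corn oil livers, and 5.74 to 6.28 in the other groups. It rose by 1.94 ± 0.18 and its second probe set by 1.87 ± 0.17 (limma adjusted p = 0.000463 and 0.000338). St8sia3, another sialyltransferase gene, rose by 2.56 ± 0.36 (adjusted p = 0.00506). Hilpda and Abhd5, whose products inhibit and activate the triglyceride lipase ATGL, rose by 1.62 ± 0.32 and 1.21 ± 0.20 (adjusted p = 0.0311 and 0.0121), and leaving out single arrays ended the Hilpda call in 6 of 12 fits and the Abhd5 call in 2. The Notch ligand Dll4, the semaphorin receptor Plxnd1, the adrenomedullin receptor Calcrl and the chemokine Cxcl12 fell by 0.74 ± 0.14, 0.68 ± 0.10, 0.64 ± 0.12 and 0.83 ± 0.15 on the log2 scale (adjusted p = 0.0237, 0.00683, 0.0216 and 0.0193). The Plxnd1 call held in all 12 fits without single arrays, and those of Dll4, Calcrl and Cxcl12 in 9, 7 and 8.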
